A study of Arabidopsis thaliana with 8 samples.

Results

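The nuclear photosynthesis genes described here are 50 Arabidopsis loci, chosen by locus identifier: the LHCA and LHCB genes for antenna proteins, the nuclear genes for photosystem I (PSA) and photosystem II (PSB) subunits, both plastocyanin genes, *PETC*, the *RBCS* genes and *RCA*. All 50 were among the 21960 genes of the expression tables. They fall into an antenna group of 20 genes, a photosystem group of 22 genes, a Rubisco group of 5 genes and 3 genes for electron carriers. RNA came from untreated leaves of 4-week-old plants of 4 genotypes that share the Col-0 ecotype. The labels give 20 °C with 16 h of light and 8 h of dark, whereas the study's methods for gene expression give 22 °C. The *co-SAIL* plants carry a mutant allele of *CONSTANS* (*CO*), the transcription factor that induces flowering in long days. The *35S::miP1a* and *35S::miP1b* plants overexpress a FLAG-tagged microProtein from the 35S promoter, which drives a transgene in nearly all cells, so their RNA does not reflect the tissues where these genes are normally active. Both microProteins are small proteins with a B-Box, which the study examined as partners of CO. How many independent transgenic lines stand behind each is not given in the sources used here. Wild type Col-0 plants served as the common control. The study reports that *co* mutants and both overexpression lines flower later than Col-0 in long days. Developmental stage at harvest may therefore differ from Col-0 in each comparison, and its part in the changes was not tested.

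Each genotype had 2 libraries, which the series describes as technical replicates, so differences between plants of a genotype may not enter the error. The 3 comparisons with wild type use the same Col-0 libraries. Reads recovered from the tables summed to between 31989425 and 36553670 per genotype over both libraries, and the least abundant of the 50 genes had 412 reads in Col-0. Levels are CPM, the reads of a gene per 1000000 normalised reads over both libraries of a genotype. The normalised total, which is the effective library size of the tables, was 34516818 in Col-0 against 33576399 reads, so CPM and shares of reads differ slightly. Errors are standard errors (SE) of log2 changes from the spread between libraries, a coefficient of variation of 11.5% shared by all genes. The transgenes were high in their own lines: *miP1a* (AT3G21890) had 3701 CPM in *35S::miP1a* against 0.694 CPM in Col-0, and *miP1b* (AT4G15248) had 1046 CPM in *35S::miP1b* against 0.087 CPM in Col-0. *CO* (AT5G15840) had 5.56 CPM in *co-SAIL* and 4.94 CPM in Col-0, and a count over the whole gene does not show whether a transcript with an insertion is intact. *FT* (AT1G65480), which CO activates in leaves, had 0.605 CPM in *co-SAIL*, 0 reads in *35S::miP1a*, 0.0282 CPM in *35S::miP1b* and 9.69 CPM in Col-0.

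Antenna proteins bind the chlorophylls that absorb light and pass the energy to the reaction centres. LHCB1, LHCB2 and LHCB3 form the trimers of light-harvesting complex II (LHCII), the minor proteins LHCB4, LHCB5 and LHCB6 connect trimers to photosystem II, and the LHCA proteins surround photosystem I. Plastocyanin and the cytochrome b6f complex carry electrons between the photosystems, and Rubisco, built from nuclear RBCS and plastid-encoded large subunits, fixes carbon dioxide. In leaves these genes are among the most abundantly transcribed, and light, the circadian clock and signals from the chloroplast are known to control them. The study's methods for RNA sequencing do not give the time of day at harvest, and its part in the changes was not tested.

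The antenna group held most of the changes, and the largest changes within it were those of single *LHCB1* and *LHCB2* genes. In *35S::miP1a*, 11 of the 50 genes rose (22%) and 0 fell, against 5.15% of all 21960 genes that rose and 4.59% that fell. Among the 11 are *LHCB1.1*, *LHCB1.2*, *LHCB1.5*, *LHCB2.1* and *LHCB2.2*, similar copies that may share reads and count here as separate genes. Calls with copies summed were not made. In *35S::miP1b*, 10 rose (20%) and 1 fell, against 4.5% and 8.09% of all genes. In *co-SAIL*, 5 rose (10%) and 0 fell, against 0.76% and 2.34% of all genes. A gene was called at an adjusted p below 0.05 in a negative binomial likelihood ratio test with Benjamini-Hochberg adjustment over all 21960 genes. With an assumed coefficient of variation of 20% between libraries, 0 of the 50 genes were called in *co-SAIL*, 5 in *35S::miP1a* and 1 in *35S::miP1b*. All 50 genes had a mean of at least 10 CPM. Of the 11382 genes at or above that level, 4.54% rose and 3.38% fell in *35S::miP1a*, 5.51% rose and 6.42% fell in *35S::miP1b*, and 0.677% rose and 1.59% fell in *co-SAIL*. At the thresholds of the study's methods, a fold change of 4 and an adjusted p below 0.001, 0 of the 50 genes were called in any comparison, against 0.246% of all genes in *co-SAIL*, 0.874% in *35S::miP1a* and 1.48% in *35S::miP1b*.

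**Figure D1:**
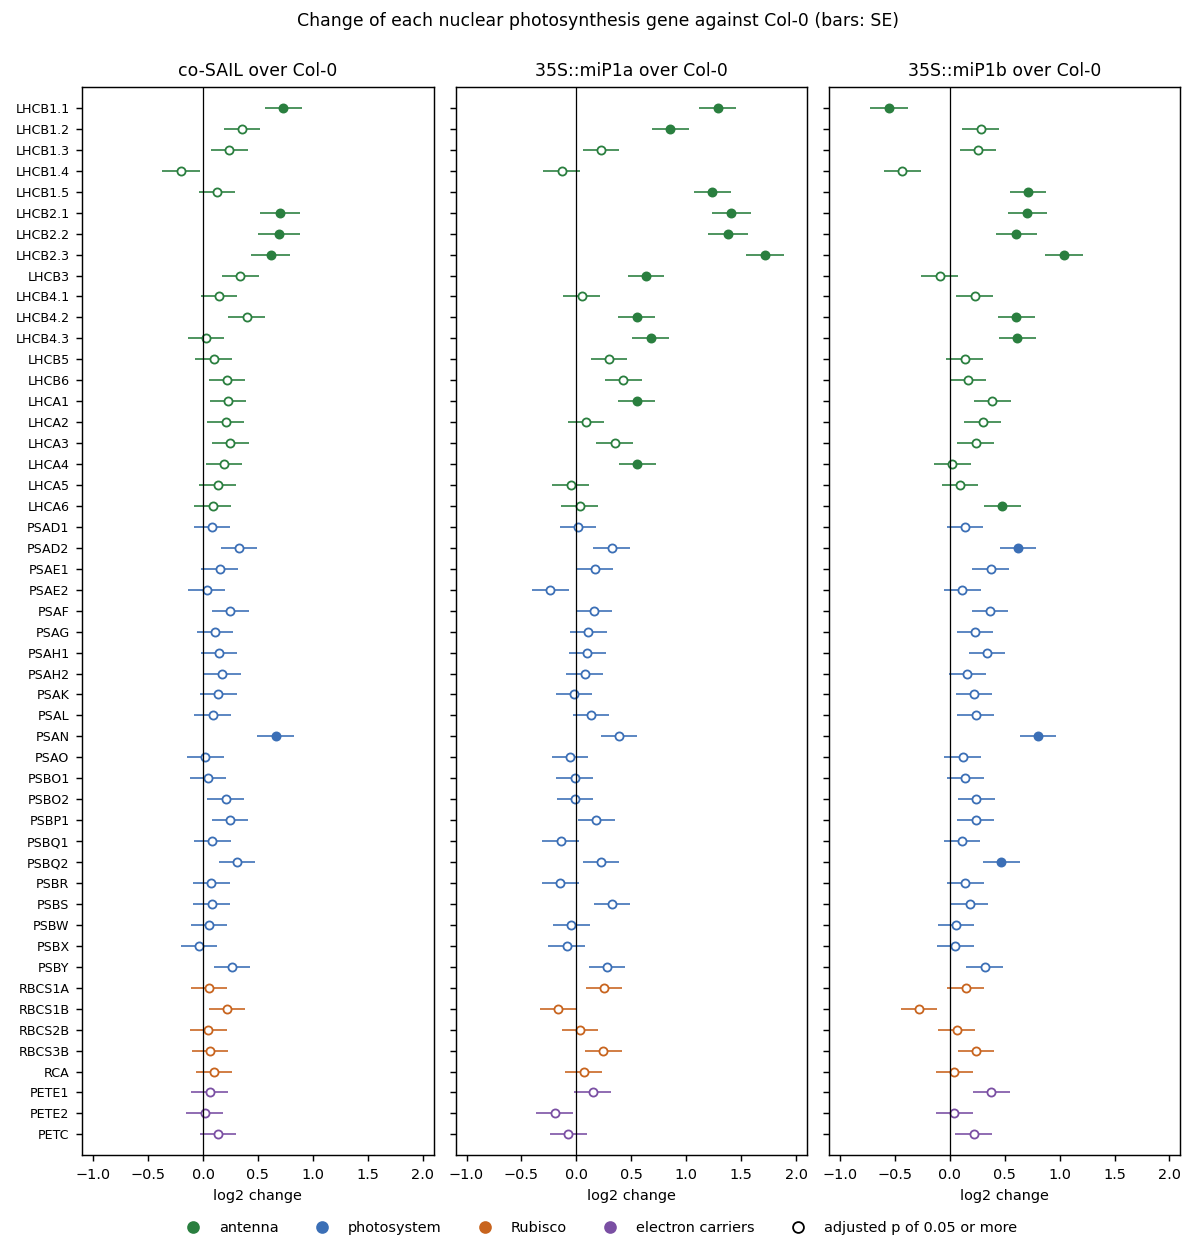
Log2 change against Col-0 of each of the 50 genes (rows) in *co-SAIL*, *35S::miP1a* and *35S::miP1b* (panels), with bars of 1 SE. Filled points passed an adjusted p of 0.05, and most of them are antenna genes in the upper rows, with *LHCB2.3* at 1.71 in *35S::miP1a* as the highest value and *LHCB1.1* in *35S::miP1b* at -0.55 as the lowest.

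The groups differed in their medians as follows. The median log2 change of the antenna group was 0.22 in *co-SAIL*, 0.55 in *35S::miP1a* and 0.27 in *35S::miP1b*. That of the photosystem group was 0.12, 0.09 and 0.23 in the same order of genotypes, and that of the Rubisco group was 0.06, 0.07 and 0.06. Over the genes with a mean of at least 10 CPM the median was 0.02 in *co-SAIL*, 0.00 in *35S::miP1a* and 0.03 in *35S::miP1b*. Within the antenna group, 4 of 20 genes rose in *co-SAIL*, 11 rose in *35S::miP1a*, and 7 rose and 1 fell in *35S::miP1b*. The photosystem group had 1 gene that rose in *co-SAIL*, 0 in *35S::miP1a* and 3 in *35S::miP1b* among 22. No gene of the Rubisco group or of the electron carriers was called in a comparison with Col-0. Group medians were not tested against each other, and on all reads without normalisation the Rubisco median in *35S::miP1b* was -0.01.

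The 50 genes together took 10.6% of all gene reads in *co-SAIL*, 11% in *35S::miP1a*, 10.9% in *35S::miP1b* and 10.2% in Col-0. Among the 100 genes with the highest mean CPM, 29 belong to these 50. The antenna group held 1.98% of reads in *co-SAIL*, 2.18% in *35S::miP1a* and 2.02% in *35S::miP1b*, against 1.79% in Col-0. The 95% Wilson interval of the Col-0 share is 1.78% to 1.79% and covers counting error only. The photosystem group held 4.16%, 4.04% and 4.38% in the 3 genotypes in that order and 3.94% in Col-0. The Rubisco group held 3.73% in *co-SAIL*, 4.07% in *35S::miP1a*, 3.77% in *35S::miP1b* and 3.68% in Col-0.

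**Figure D2:**
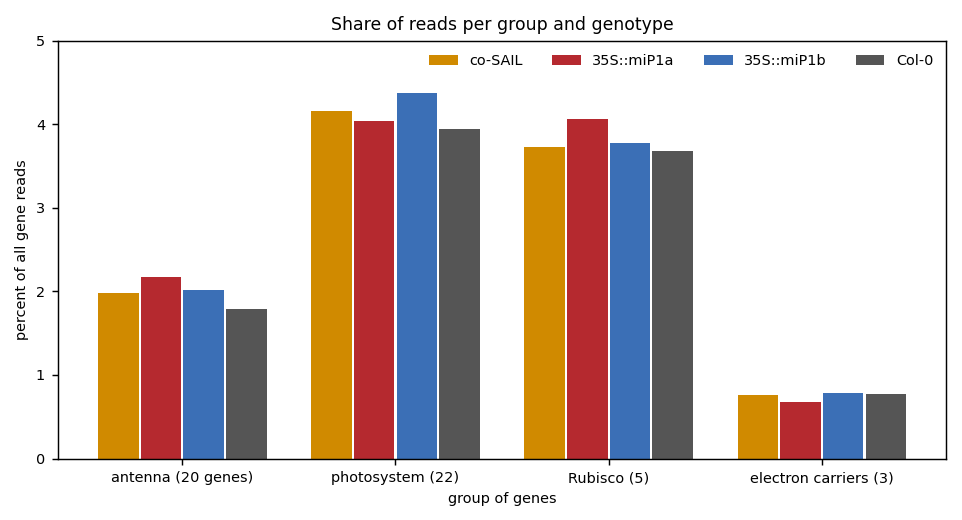
Percent of all gene reads (vertical axis, from 0) held by the antenna, photosystem, Rubisco and electron carrier groups in *co-SAIL*, *35S::miP1a*, *35S::miP1b* and Col-0 (bars, without error bars because single libraries were not used). The antenna bars are all above the Col-0 bar of 1.79%, with 2.18% in *35S::miP1a* the highest.

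The upstream sequences of 5 *LHCB1* and *LHCB2* genes are shown because these genes include the strongest changes of the set and a neighbour that did not pass the test. Each sequence is the 250 bases before the annotated gene start in TAIR10.1, 5′ to 3′ in the direction of transcription, at chr2:1824481-1824730 on the minus strand for *LHCB2.1*, chr2:1800473-1800722 on the minus strand for *LHCB2.2*, chr3:10255656-10255905 on the plus strand for *LHCB2.3*, chr1:10475970-10476219 on the minus strand for *LHCB1.1* and chr1:10477635-10477884 on the plus strand for *LHCB1.3*. Capitals mark, on either strand, the I-box core GATAA, the CCAAT box, the G-box CACGTG and the CCA1 site AAAAATCT. *LHCB1.3* was not called in any comparison with Col-0, and the other 4 genes were called in each of them.
LHCB2.1: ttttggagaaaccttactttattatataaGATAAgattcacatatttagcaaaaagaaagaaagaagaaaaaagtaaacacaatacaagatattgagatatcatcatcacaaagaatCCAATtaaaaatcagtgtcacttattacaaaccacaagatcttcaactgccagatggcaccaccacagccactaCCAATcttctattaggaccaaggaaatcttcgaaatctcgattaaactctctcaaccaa
LHCB2.2: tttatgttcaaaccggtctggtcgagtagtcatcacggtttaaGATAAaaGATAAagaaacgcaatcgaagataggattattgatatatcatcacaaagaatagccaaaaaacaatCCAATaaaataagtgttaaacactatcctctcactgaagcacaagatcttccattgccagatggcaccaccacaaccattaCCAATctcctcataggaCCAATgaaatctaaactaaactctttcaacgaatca
LHCB2.3: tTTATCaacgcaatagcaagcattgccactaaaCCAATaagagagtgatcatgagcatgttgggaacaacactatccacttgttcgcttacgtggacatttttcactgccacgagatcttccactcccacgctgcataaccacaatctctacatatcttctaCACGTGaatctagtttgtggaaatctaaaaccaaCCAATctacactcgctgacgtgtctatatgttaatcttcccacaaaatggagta
LHCB1.1: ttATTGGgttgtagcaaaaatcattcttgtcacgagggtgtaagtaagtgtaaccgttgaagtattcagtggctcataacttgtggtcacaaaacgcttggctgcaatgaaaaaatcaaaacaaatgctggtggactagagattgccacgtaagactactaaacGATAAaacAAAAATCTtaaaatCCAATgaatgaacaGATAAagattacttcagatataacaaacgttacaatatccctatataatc
LHCB1.3: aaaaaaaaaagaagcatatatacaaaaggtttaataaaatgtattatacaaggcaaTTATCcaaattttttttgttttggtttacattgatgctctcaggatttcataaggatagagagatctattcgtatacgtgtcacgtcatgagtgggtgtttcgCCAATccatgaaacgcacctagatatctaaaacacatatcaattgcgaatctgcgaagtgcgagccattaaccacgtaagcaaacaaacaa

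All 8 *LHCB1* and *LHCB2* promoters hold an I-box core, which 54.9% of the 27443 promoters of protein-coding genes of the same length also hold, and all 8 hold a CCAAT box, as 46% of all promoters do. Among the 50 genes, 38 promoters hold the I-box core and 32 the CCAAT box, and 18 of the 20 antenna promoters hold the CCAAT box. The G-box stands in 9 of the 50 promoters and in 6.49% of all promoters, and in this family of 8 it was found in *LHCB2.3*, with its first base 88 bases before the start. The CCA1 site stands in 5 of the 50 and in 6.69% of all promoters. The evening element AAAATATCT stands in 1 of the 50 and in 2.36% of all. The core of the CO-responsive element, TGTGNNATG, also searched with 1 more N, stands in 8 of the 50 promoters and in 7.04% of all, and is left in lower case in the sequences above. Among the 8 *LHCB1* and *LHCB2* promoters it was found in those of *LHCB2.1* and *LHCB2.3*. None of these sets of letters contains another, and a match is a stretch of letters rather than a tested site. *LHCB2.1* and *LHCB2.2* share a run of 20 bases, tgccagatggcaccaccaca, which starts 86 bases before the start of *LHCB2.1* and 80 bases before that of *LHCB2.2*. In the other 27 pairs among the 8 promoters the longest shared run is 7 to 11 bases.

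The 3 *LHCB2* genes rose in each genotype against Col-0. *LHCB2.3* (AT3G27690), the most abundant of them, had 52 CPM in *co-SAIL*, 111 CPM in *35S::miP1a* and 69.6 CPM in *35S::miP1b*, against 33.9 CPM in Col-0. It was highest in *35S::miP1a* and lowest in Col-0. The log2 change was 0.62 ± 0.17 in *co-SAIL* (SE, adjusted p = 0.0201, likelihood ratio test with Benjamini-Hochberg adjustment), 1.71 ± 0.17 in *35S::miP1a* (adjusted p = 9.69e-20) and 1.04 ± 0.17 in *35S::miP1b* (adjusted p = 1.6e-07). *LHCB2.1* (AT2G05100) had 32.8 CPM in *co-SAIL*, 53.7 CPM in *35S::miP1a*, 33.0 CPM in *35S::miP1b* and 20.2 CPM in Col-0, changes of 0.70, 1.41 and 0.71 on the log2 scale. *LHCB2.2* (AT2G05070) had 19.3, 31.1 and 18.2 CPM in *co-SAIL*, *35S::miP1a* and *35S::miP1b*, and 11.9 CPM in Col-0, changes of 0.69, 1.38 and 0.61. Their adjusted p was 0.00665 and 0.013 in *co-SAIL*, 9.46e-13 and 2.89e-11 in *35S::miP1a*, and 0.00173 and 0.0159 in *35S::miP1b*, with *LHCB2.1* given before *LHCB2.2*. Summed, the 3 genes had 104 CPM in *co-SAIL*, 196 CPM in *35S::miP1a* and 121 CPM in *35S::miP1b*, against 66.1 CPM in Col-0. *LHCB2.1* and *LHCB2.2* lie 22517 bases apart on chromosome 2, and *LHCB2.3* lies on chromosome 3.

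The *LHCB1* genes, which encode the main protein of the LHCII trimers, did not change alike. *LHCB1.1* (AT1G29920) had 186 CPM in *co-SAIL*, 274 CPM in *35S::miP1a* and 76.5 CPM in *35S::miP1b*, against 112 CPM in Col-0. It was thus above Col-0 in *co-SAIL* and *35S::miP1a* and below it in *35S::miP1b*. The log2 change was 0.73 ± 0.17 in *co-SAIL* (adjusted p = 0.00134), 1.29 ± 0.17 in *35S::miP1a* (adjusted p = 7.96e-12) and -0.55 ± 0.17 in *35S::miP1b* (adjusted p = 0.0141), which made it the only gene of the 50 to fall at this threshold. The call in *35S::miP1b* was lost with a larger assumed dispersion of 0.04 (adjusted p = 0.425). *LHCB1.5* (AT2G34420) had 310.0 CPM in *co-SAIL*, 670.2 CPM in *35S::miP1a*, 465 CPM in *35S::miP1b* and 284 CPM in Col-0. It rose in both overexpression lines, by 1.24 ± 0.17 in *35S::miP1a* (adjusted p = 4.07e-11) and 0.71 ± 0.17 in *35S::miP1b* (adjusted p = 0.000537), and its change of 0.13 in *co-SAIL* did not pass the test. *LHCB1.2* (AT1G29910) had 352 CPM in *co-SAIL*, 498 CPM in *35S::miP1a*, 334 CPM in *35S::miP1b* and 275 CPM in Col-0, and rose in *35S::miP1a* (0.86 ± 0.17, adjusted p = 1.92e-05). *LHCB1.4* (AT2G34430) had 112, 117 and 95.5 CPM in the 3 genotypes in that order and 129 CPM in Col-0, below Col-0 in each, and was not called, although under 2 other scalings it fell in *35S::miP1b* too.

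*LHCB1.3* (AT1G29930) was by far the most abundant gene of the family, with 4022 CPM in *co-SAIL*, 3977 CPM in *35S::miP1a*, 4069 CPM in *35S::miP1b* and 3403 CPM in Col-0. All 3 values were above Col-0 by similar amounts, 0.24, 0.22 and 0.26 on the log2 scale, and 0 of them passed the test. The 95% interval of the change in *35S::miP1a* was -0.10 to 0.55. Its share of all *LHCB1* reads was 80.7% in *co-SAIL*, 71.8% in *35S::miP1a* and 80.7% in *35S::miP1b*, against 81.0% in Col-0. In *35S::miP1a*, *LHCB1.1*, *LHCB1.2* and *LHCB1.5* changed more than *LHCB1.3*, and *LHCB1.4* did not. Summed over its 5 genes, *LHCB1* had 4983 CPM in *co-SAIL*, 5537 CPM in *35S::miP1a* and 5041 CPM in *35S::miP1b*, against 4203 CPM in Col-0, or 1.19, 1.32 and 1.2 times the Col-0 level. *LHCB1.2*, *LHCB1.1* and *LHCB1.3* are neighbours on chromosome 1, with 1153 bases between *LHCB1.2* and *LHCB1.1* and 1915 bases between the divergently transcribed *LHCB1.1* and *LHCB1.3*. *LHCB1.5* and *LHCB1.4* are divergent neighbours on chromosome 2, 1038 bases apart, and *LHCB1.5* rose in both overexpression lines while *LHCB1.4* was below Col-0.

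**Figure D3:**
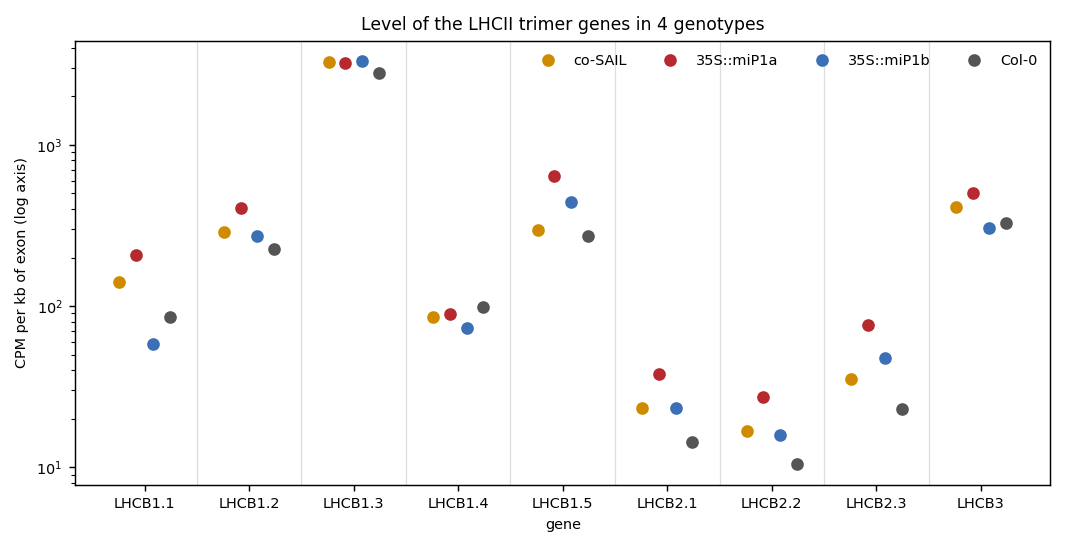
Level of the 9 genes of the LHCII trimers (horizontal axis) in CPM per kilobase of exon (log axis) in *co-SAIL*, *35S::miP1a*, *35S::miP1b* and Col-0, each point the value of a genotype over both libraries. *LHCB1.3* stands near 3000 in every genotype, while the *LHCB2* genes lie between 10.5 and 75.9 with Col-0 lowest.

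The copies of *LHCB1* and *LHCB2* are similar in sequence, which limits these values. Of the 50-base windows along the exons of the *LHCB1* genes, 41.0% to 66.1% matched the genome at only 1 place with up to 2 mismatches, and the share was 50.1% for *LHCB2.1* and 42.5% for *LHCB2.2*. How the authors assigned reads that match several copies is not given in the sources used here, so the values of single copies are uncertain. *LHCB2.3* is not limited in this way, with 99.1% of windows at 1 place, and it showed the largest change of the 50 genes in *35S::miP1a* and in *35S::miP1b*. For 38 of the 50 genes at least 95% of the windows matched 1 place, among them all genes called against Col-0 other than the *LHCB1* genes, *LHCB2.1* and *LHCB2.2*.

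**Figure D4:**
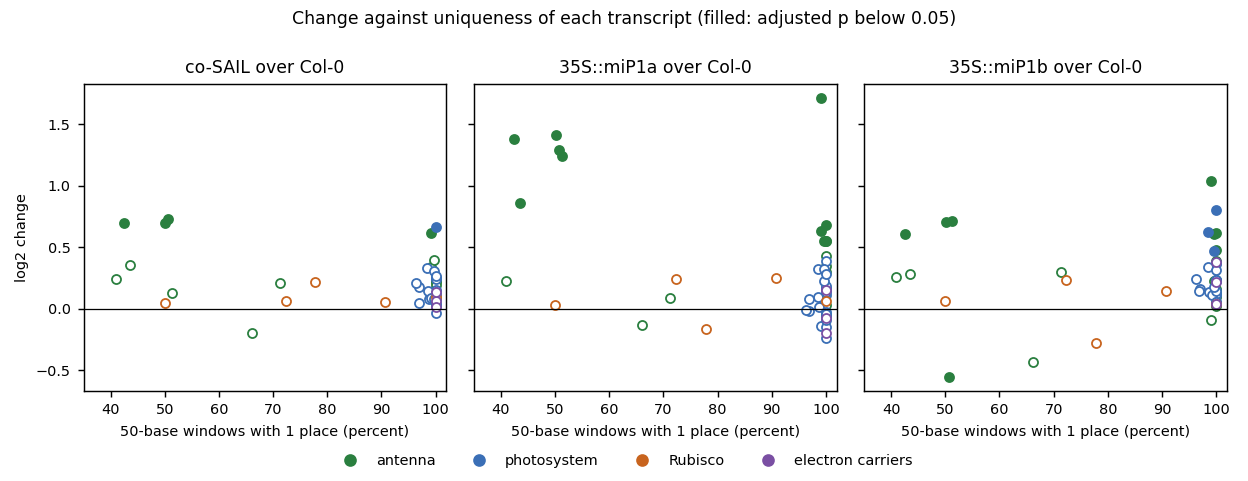
Log2 change against Col-0 of the 50 genes (vertical axis) by the percent of 50-base exon windows that match the genome at 1 place with up to 2 mismatches (horizontal axis), in *co-SAIL*, *35S::miP1a* and *35S::miP1b*. Filled points passed an adjusted p of 0.05, and they occur both near 50% (*LHCB1* and *LHCB2* copies) and near 100%, where *LHCB2.3* reaches 1.71.

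*LHCB3* (AT5G54270), the remaining trimer protein, had 512 CPM in *co-SAIL*, 627 CPM in *35S::miP1a*, 379 CPM in *35S::miP1b* and 404 CPM in Col-0. It rose in *35S::miP1a* (0.63 ± 0.17, adjusted p = 0.00359) and was slightly below Col-0 in *35S::miP1b* (-0.09, not called). Among the minor antenna genes, *LHCB4.2* (AT3G08940) had 514 CPM in *co-SAIL*, 571 CPM in *35S::miP1a*, 594 CPM in *35S::miP1b* and 390.3 CPM in Col-0. *LHCB4.3* (AT2G40100) had 326, 511 and 489.5 CPM in the same order, and 319 CPM in Col-0. Both rose in both overexpression lines, *LHCB4.2* by 0.55 (adjusted p = 0.0161) in *35S::miP1a* and 0.61 (adjusted p = 0.00469) in *35S::miP1b*, and *LHCB4.3* by 0.68 (adjusted p = 0.00145) and 0.62 (adjusted p = 0.00386). The abundant copy *LHCB4.1* had 3590.0 CPM in *co-SAIL*, 3352 CPM in *35S::miP1a*, 3794 CPM in *35S::miP1b* and 3243 CPM in Col-0 and was not called, nor were *LHCB5* and *LHCB6*.

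Of the 6 photosystem I antenna genes, *LHCA1* (AT3G54890) had 655 CPM in *co-SAIL*, 819 CPM in *35S::miP1a*, 732 CPM in *35S::miP1b* and 559 CPM in Col-0, and rose in *35S::miP1a* (0.55 ± 0.17, adjusted p = 0.0156). *LHCA4* (AT3G47470), its partner in a dimer, had 798 CPM in *co-SAIL*, 1026 CPM in *35S::miP1a*, 710.3 CPM in *35S::miP1b* and 699 CPM in Col-0, and rose by the same amount in *35S::miP1a* (adjusted p = 0.0143). *LHCA6* (AT1G19150), a scarce protein that links photosystem I to the NDH complex, had 280.1 CPM in *co-SAIL*, 269 CPM in *35S::miP1a*, 367 CPM in *35S::miP1b* and 264 CPM in Col-0, and rose in *35S::miP1b* (0.48 ± 0.17, adjusted p = 0.0378). *LHCA2*, *LHCA3* and *LHCA5* were not called, with changes between -0.05 and 0.35.

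Direct tests compared the genotypes with each other. Between *35S::miP1b* and *35S::miP1a*, 8 of the 50 genes differed (16%), against 6.51% of all genes, and all 8 were antenna genes that were lower in *35S::miP1b*. The largest of these differences was that of *LHCB1.1* (log2 -1.84, 95% interval -2.17 to -1.51, adjusted p = 7.99e-24), followed in size by *LHCB2.2* (-0.77), *LHCB3* (-0.73), *LHCB2.1* (-0.70), *LHCB2.3* (-0.68), *LHCB1.2* (-0.58), *LHCA4* (-0.53) and *LHCB1.5* (-0.53). Between *35S::miP1a* and *co-SAIL*, 7 genes differed (14%), against 8.27% of all genes, all higher in *35S::miP1a*: *LHCB1.1*, *LHCB1.2*, *LHCB1.5*, the 3 *LHCB2* genes and *LHCB4.3*. *LHCB1.5* (1.11) and *LHCB2.3* (1.1) differed most. Between *35S::miP1b* and *co-SAIL*, 4 genes differed (8%), close to the 7.85% of all genes. *LHCB1.5* (0.58) and *LHCB4.3* (0.59) were higher in *35S::miP1b*, and *LHCB1.1* (-1.28) and *RBCS1B* (-0.50) were lower. The *LHCB2* genes were not distinguished between *35S::miP1b* and *co-SAIL*, with a difference of 0.42 for *LHCB2.3* (95% interval 0.08 to 0.76, adjusted p = 0.12).

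The photosystem genes changed little. *PSAN* (AT5G64040), a subunit on the lumenal side of photosystem I where plastocyanin docks, had 1373 CPM in *co-SAIL*, 1136 CPM in *35S::miP1a* and 1514 CPM in *35S::miP1b*, against 867 CPM in Col-0. Col-0 was the lowest of the 4, and *PSAN* rose by 0.66 ± 0.17 in *co-SAIL* (adjusted p = 0.00471) and 0.80 ± 0.17 in *35S::miP1b* (adjusted p = 5.1e-05). Its change of 0.39 in *35S::miP1a* was not called (95% interval 0.06 to 0.72), and *35S::miP1b* and *35S::miP1a* did not differ at the threshold (0.41, adjusted p = 0.141). *PSAD2* (AT1G03130), the minor copy of the subunit that docks ferredoxin, had 372 CPM in *co-SAIL*, 371 CPM in *35S::miP1a*, 456 CPM in *35S::miP1b* and 296 CPM in Col-0, and rose in *35S::miP1b* (0.62 ± 0.17, adjusted p = 0.00345). The major copy *PSAD1* had 2102 CPM in *co-SAIL*, 2005 CPM in *35S::miP1a*, 2185 CPM in *35S::miP1b* and 1987 CPM in Col-0 and was not called. *PSBQ2* (AT4G05180), an extrinsic subunit of the oxygen-evolving complex, had 1741 CPM in *co-SAIL*, 1639 CPM in *35S::miP1a*, 1943 CPM in *35S::miP1b* and 1404 CPM in Col-0, and rose in *35S::miP1b* (0.47 ± 0.17, adjusted p = 0.0411).

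The other 19 photosystem genes were not called in any comparison, with changes from -0.24 for *PSAE2* in *35S::miP1a* to 0.37 for *PSAE1* in *35S::miP1b*. They include *PSBO1*, the most abundant of the photosystem genes in CPM, which stabilises the manganese cluster of photosystem II. It had 4866 CPM in *co-SAIL*, 4667 CPM in *35S::miP1a*, 5213 CPM in *35S::miP1b* and 4723 CPM in Col-0. *PSBS*, needed to dissipate excess light energy, had 2043 CPM in *co-SAIL*, 2425 CPM in *35S::miP1a*, 2194 CPM in *35S::miP1b* and 1936 CPM in Col-0. Although few passed the test, 22 of 22 photosystem genes were above Col-0 in *35S::miP1b*, 21 of 22 in *co-SAIL* and 13 of 22 in *35S::miP1a*. Of the 8083 genes with a mean CPM at or above that of the least abundant of the 50, 58% were above Col-0 in *35S::miP1b*, 57.3% in *co-SAIL* and 51.6% in *35S::miP1a*, so the count in *35S::miP1a* was near that of other genes. Scaled to all reads without normalisation, 20, 17 and 12 of the 22 were above Col-0 in the same order of genotypes. At that scaling 47.8%, 44.0% and 46.5% of the 8083 genes were above Col-0, so the shares of all these genes were lower too. These genes share their libraries, so their signs are not independent of each other.

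*RBCS1A* and *RCA* had the most reads of the set, and 0 of the 5 Rubisco genes were called against Col-0. *RBCS1A* (AT1G67090) had 20723 CPM in *co-SAIL*, 23724 CPM in *35S::miP1a*, 22064 CPM in *35S::miP1b* and 19960.4 CPM in Col-0. Its share of all gene reads was 2.05% in *co-SAIL*, 2.38% in *35S::miP1a*, 2.16% in *35S::miP1b* and 2.05% in Col-0. It was highest in *35S::miP1a*, with a change of 0.25 (95% interval -0.08 to 0.57) that was not called. The 4 *RBCS* genes together had 28644 CPM in *co-SAIL*, 31598 CPM in *35S::miP1a*, 29835 CPM in *35S::miP1b* and 27353 CPM in Col-0. *RBCS1B* (AT5G38430) had 2133 CPM in *co-SAIL*, 1639 CPM in *35S::miP1a*, 1513 CPM in *35S::miP1b* and 1835 CPM in Col-0, above Col-0 in *co-SAIL* and below it in the overexpression lines. Its difference between *35S::miP1b* and *co-SAIL* was the single called difference in the group (-0.50, adjusted p = 0.0407). *RBCS1B*, *RBCS2B* and *RBCS3B* stand in a row on chromosome 5 and their windows matched 1 place in 77.8%, 50% and 72.3%, so values of the single copies are uncertain too. Summed, the 3 copies had 7921 CPM in *co-SAIL*, 7874 CPM in *35S::miP1a*, 7771 CPM in *35S::miP1b* and 7393 CPM in Col-0. *RCA*, the activase that frees Rubisco of inhibitory sugar phosphates, had 9068 CPM in *co-SAIL*, 8865 CPM in *35S::miP1a*, 8711 CPM in *35S::miP1b* and 8463 CPM in Col-0, changes of 0.04 to 0.10.

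Among the electron carriers, the main plastocyanin gene *PETE2* had 5769 CPM in *co-SAIL*, 4979 CPM in *35S::miP1a*, 5879.7 CPM in *35S::miP1b* and 5708 CPM in Col-0. *PETE1*, the minor plastocyanin gene, had 264 CPM in *co-SAIL*, 281 CPM in *35S::miP1a*, 329.6 CPM in *35S::miP1b* and 253 CPM in Col-0. *PETC*, which encodes the Rieske iron-sulphur protein of cytochrome b6f, had 1653 CPM in *co-SAIL*, 1430.3 CPM in *35S::miP1a*, 1749 CPM in *35S::miP1b* and 1504 CPM in Col-0. None of these changes passed the test, and in *35S::miP1a* both *PETE2* (-0.20) and *PETC* (-0.07) were below Col-0.

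The called genes were mostly those with lower mean CPM. In CPM per kilobase of exon, the 50 genes spanned 10.5 for *LHCB2.2* to 15742 for *RBCS1A* in Col-0, and these 2 genes marked the ends in each genotype. The Col-0 median was 279 in the antenna group, 1367 in the photosystem group and 2386 in the Rubisco group. Ranked by mean CPM, the 25 less abundant genes held 5 of the 5 calls in *co-SAIL*, 11 of 11 in *35S::miP1a* and 10 of 11 in *35S::miP1b*, where *PSBQ2* was the exception. Their median change was 0.19 in *co-SAIL*, 0.39 in *35S::miP1a* and 0.34 in *35S::miP1b*, against 0.10, 0.07 and 0.18 in the 25 more abundant genes. Because 1 dispersion was used for all genes, the SE does not show whether scarce genes varied more between libraries, and the part of such variation in these calls was not tested.

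**Figure D5:**
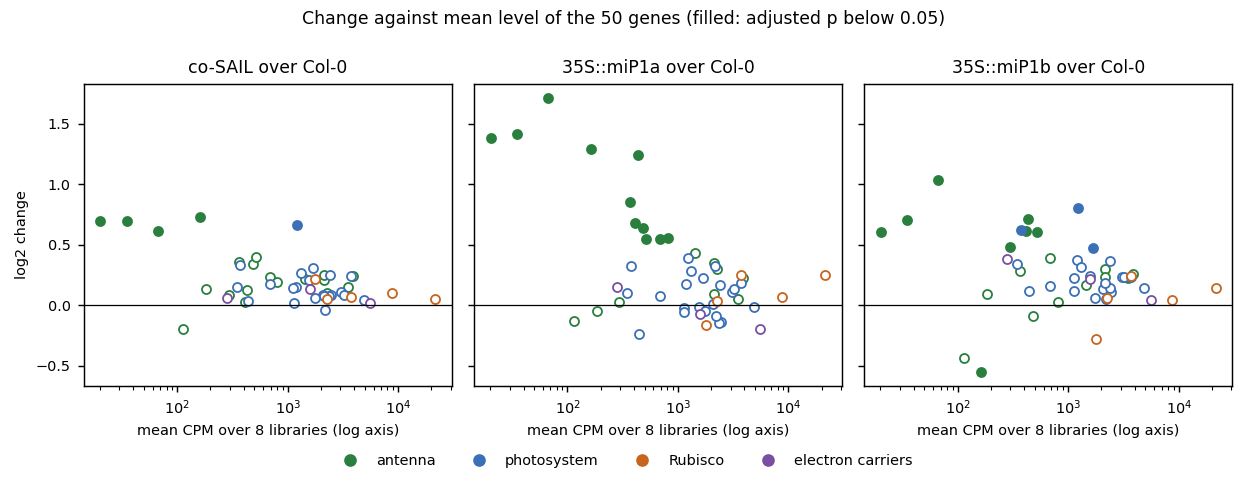
Log2 change against Col-0 of the 50 genes (vertical axis) by mean CPM over all 8 libraries (log axis) in *co-SAIL*, *35S::miP1a* and *35S::miP1b*. Filled points passed an adjusted p of 0.05, and in *35S::miP1a* all 11 of them lie to the left, among the 25 less abundant genes, at log2 changes of 0.55 to 1.71.

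Genes of related pathways were examined beside the 50. Of 16 genes of chlorophyll synthesis, 2 rose in each genotype (12.5%) and 0 fell, against 0.76% of all genes that rose in *co-SAIL*, 5.15% in *35S::miP1a* and 4.5% in *35S::miP1b*. *CHLH*, a subunit of the magnesium chelatase that starts the chlorophyll branch, had 899.8 CPM in *co-SAIL*, 1154 CPM in *35S::miP1a* and 1224 CPM in *35S::miP1b*, against 531 CPM in Col-0, changes of 0.76, 1.12 and 1.2 that were all called. *HEMA1*, which encodes the enzyme of the first committed step of tetrapyrrole synthesis, had 147 CPM in *co-SAIL*, 103 CPM in *35S::miP1a*, 208 CPM in *35S::miP1b* and 74.9 CPM in Col-0. It rose in *co-SAIL* (0.97, adjusted p = 2.58e-06) and *35S::miP1b* (1.48, adjusted p = 1.47e-15), and in *35S::miP1a* the change of 0.47 missed the threshold (adjusted p = 0.0606). *CAO*, which makes the chlorophyll b that antenna proteins bind and was picked after its values were seen, had 82.4 CPM in *co-SAIL*, 99.6 CPM in *35S::miP1a*, 78.1 CPM in *35S::miP1b* and 63.4 CPM in Col-0, and rose in *35S::miP1a* (0.65, adjusted p = 0.00344).

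The next 3 lists and the regulators had at most 1 called gene each against Col-0. Of all genes, 4.5% rose and 8.09% fell in *35S::miP1b*, and 5.15% rose and 4.59% fell in *35S::miP1a*. Of 15 Calvin cycle genes other than Rubisco, *RPE*, for ribulose-phosphate epimerase, was the only gene called, in *35S::miP1b* (0.56, adjusted p = 0.0099). Of 7 genes for ATP synthase, ferredoxin and ferredoxin-NADP reductase, *FD2*, the main leaf ferredoxin, was the only gene called, also in *35S::miP1b* (0.59, adjusted p = 0.00564). *ELIP1*, a light-induced relative of the antenna proteins, was the only gene called of 4 such genes, in *35S::miP1a* (0.83, adjusted p = 0.00874). Of 6 regulators of photosynthesis genes, *SIG1*, a sigma factor of the plastid RNA polymerase, rose in *35S::miP1b* (133 CPM against 68.5 CPM in Col-0, 0.96, adjusted p = 9.79e-07). The remaining regulators, *GLK1*, *GLK2*, *SIG2*, *SIG5* and *HY5*, were not called in any genotype, with changes between -0.41 and 0.38. GLK1 and GLK2 are transcription factors known to activate antenna and chlorophyll genes, and *GLK1* had 246 CPM in *co-SAIL*, 196 CPM in *35S::miP1a*, 204 CPM in *35S::miP1b* and 203 CPM in Col-0. Of the 11 plastid-encoded photosynthesis genes on the list, 0 were among the 21960 genes, so they could not be analysed here.

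Some markers of leaf cell types and of leaf age differed from Col-0, and their part in the antenna changes was not tested. Of the 5 leaf cell markers, 0 were called against Col-0 in *co-SAIL*. In *35S::miP1a* 1 rose and 1 fell, and in *35S::miP1b* 1 rose and 2 fell. The 5 leaf markers summed to 4821 CPM in *co-SAIL*, 4933 CPM in *35S::miP1a*, 5406 CPM in *35S::miP1b* and 4006 CPM in Col-0, with 0 of them at 0 reads. The mesophyll marker *CA1* made up nearly all of this sum and rose in *35S::miP1b* (0.46, adjusted p = 0.0494). The epidermal gene *PDF1* had 20.7 CPM in *co-SAIL*, 2.01 CPM in *35S::miP1a*, 0.334 CPM in *35S::miP1b* and 26.1 CPM in Col-0, whereas *ATML1*, also epidermal, had 70.0, 59.5 and 64.9 CPM in the 3 genotypes in that order and 58.2 CPM in Col-0. The phloem companion cell gene *SUC2* rose in *35S::miP1a* (0.59, adjusted p = 0.00866) and the guard cell gene *MYB60* fell in *35S::miP1b* (-0.59, adjusted p = 0.0203). The 5 floral organ markers summed to 15 to 22 reads per genotype, with *AP1* at 0 reads in *co-SAIL*, *35S::miP1b* and Col-0. In the likelihood ratio test, 1 of the 5 rose in *co-SAIL* (adjusted p = 0.0265) and 0 were called in the overexpression lines against Col-0. Between *35S::miP1b* and *co-SAIL*, 1 was lower in *35S::miP1b* (adjusted p = 0.0121). These calls rest on few reads. Of 6 listed senescence markers, 5 were among the 21960 genes. These 5 summed to 171 CPM in *co-SAIL*, 217 CPM in *35S::miP1a*, 191 CPM in *35S::miP1b* and 161 CPM in Col-0, with 0 of them at 0 reads. Their median log2 change was 0.11 in *co-SAIL*, 0.37 in *35S::miP1a* and 0.05 in *35S::miP1b*. Against Col-0, 1 of the 5 rose and 1 fell in *co-SAIL*, 2 rose and 0 fell in *35S::miP1a*, and 0 rose and 1 fell in *35S::miP1b*. Of all genes, 0.76% rose and 2.34% fell in *co-SAIL*, and 5.15% rose and 4.59% fell in *35S::miP1a*. In *35S::miP1b*, 4.5% rose and 8.09% fell. *SAG13* had 1.89 CPM in *co-SAIL*, 20.8 CPM in *35S::miP1a*, 0.142 CPM in *35S::miP1b* and 3.96 CPM in Col-0. It was called in each, with log2 changes of -1.07 in *co-SAIL*, 2.39 in *35S::miP1a* and -4.81 in *35S::miP1b*. *ORE1* rose in *co-SAIL* (0.99, adjusted p = 0.00892) and in *35S::miP1a* (1.34, adjusted p = 8.06e-06). In leaf RNA, fewer cells of a type and less RNA per cell cannot be told apart.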

How the data were processed

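Tables of 21960 genes were deposited for *co-SAIL*, *35S::miP1a* and *35S::miP1b*, each against Col-0. The authors clipped the first 10 bases (Trimmomatic 0.32), mapped reads to TAIR10 with Bowtie in RobiNA and fitted edgeR 2.6.12 with default normalization. In the deposited tables, 1 log2 column gives the fold change with Col-0 on top and another the mean CPM of all 8 libraries. The score deposited by the authors is the likelihood ratio of each comparison. The p-value and FDR columns were made by the authors from that ratio and were not used here. The log2 columns served only to recover reads per gene and genotype, with a prior count of 0.5 over all libraries, and the score served only to find the dispersion of the fit, 0.0132. Among genes with fewer than 20 reads, 100% of the recovered values were within 0.1 of a whole number, and 52.5% among genes with 100 to 500 reads. Among genes over 1 CPM with a deposited likelihood ratio over 5, the recomputed ratio differed from it by a factor of at most 1.018.

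A negative binomial likelihood ratio test with 1 degree of freedom was run on the recovered reads, summed over both libraries, with Benjamini-Hochberg adjustment over all genes. It was tried on data simulated with the same single dispersion, which does not cover genes whose spread differs from it. Single libraries were not analysed here. The series describes paired libraries as technical replicates and the methods as samples, so p-values measure only the spread between these libraries. The genes, lists and tests were chosen with earlier results of these data known. Named were genes called in a comparison with Col-0, copies of the same protein, the gene with the smallest p of each further list, all regulators, and, after their values were seen, *CAO*, *SUC2*, *CA1*, *MYB60*, *ATML1*, *ORE1* and others in the text without a call. Alternatives were other dispersions, a minimum of 1 CPM, centring, scaling to all reads (added after the data were seen), stricter thresholds and summed copies. Gene models, exon lengths and upstream sequences come from RefSeq's annotation of TAIR10.1, which matched 21706 genes by locus tag. Windows were aligned with BWA 0.7.19. Scripts ran in Python 3.11.15 with pandas 2.3.3, SciPy 1.17.1, matplotlib 3.10.9 and NumPy 2.4.6.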

Additional observations from a re-analysis of the deposited data

Results flagged for a closer look

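*LHCB1.1* moved in opposite directions. It rose in *co-SAIL* and *35S::miP1a* and fell in *35S::miP1b*, each against the same Col-0 libraries, and the differences themselves passed the likelihood ratio test with Benjamini-Hochberg adjustment. The log2 difference was -1.84 for *35S::miP1b* over *35S::miP1a* (adjusted p = 7.99e-24) and -1.28 for *35S::miP1b* over *co-SAIL* (adjusted p = 1.81e-11). The fall in *35S::miP1b* against Col-0 (-0.55, adjusted p = 0.0141) was not called at a dispersion of 0.04 (adjusted p = 0.425) or 0.16, at an adjusted p below 0.001 or with a minimum change of 1.5-fold. The rise in *co-SAIL* was not called at either dispersion or at an adjusted p below 0.001, and the rise in *35S::miP1a* was not called at a dispersion of 0.16. The differences between genotypes were not recomputed under these settings. Of its exon windows, 50.7% match the genome at 1 place.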

How the results depend on the processing

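The calls depended on the assumed spread between libraries. With a dispersion of 0.04 (a coefficient of variation of 20%) in place of 0.0132, 0 genes rose in *co-SAIL*, 5 in *35S::miP1a* (*LHCB1.1*, *LHCB1.5* and the 3 *LHCB2* genes) and 1 in *35S::miP1b* (*LHCB2.3*), and 0 fell in *35S::miP1b*. With 0.16 (40%), 0 rose in each of the 3 genotypes and 0 fell in *35S::miP1b*. At an adjusted p below 0.001, 0 rose in *co-SAIL*, 6 in *35S::miP1a* and 3 in *35S::miP1b*, and 0 fell in *35S::miP1b*. With a minimum change of 1.5-fold, 8 rose in *35S::miP1a* (without *LHCB4.2*, *LHCA1* and *LHCA4*), 8 rose in *35S::miP1b* (without *LHCA6* and *PSBQ2*) and 0 fell there. With changes centred on the median of genes with at least 10 CPM, 2 fell in *35S::miP1b*, *LHCB1.1* and *LHCB1.4*, while *LHCA6* and *PSBQ2* were no longer called there. Scaling to all reads without normalisation, chosen after seeing the data, gave the same 2 falls and the same 2 losses in *35S::miP1b* and left the calls in *co-SAIL* and *35S::miP1a* as they were. A minimum of 1 CPM changed 0 of the 27 single-gene calls. Small group medians depended on the scaling: the Rubisco median was 0.06 in *co-SAIL* but 0.10 with copies summed and 0.01 on all reads, and 0.06 in *35S::miP1b* but 0.03 centred and -0.01 on all reads. In *35S::miP1a* the median of the 50 genes was 0.16 but 0.10 with copies summed, and on all reads it was 0.09 in *co-SAIL* against 0.14 with normalisation. The photosystem median on all reads was 0.07 in *co-SAIL* and 0.06 in *35S::miP1a*, and the Rubisco median in *35S::miP1a* was 0.03. The antenna medians were 0.17 to 0.22 in *co-SAIL*, 0.41 to 0.55 in *35S::miP1a* and 0.20 to 0.27 in *35S::miP1b* under these settings. No paired analysis was possible because single libraries were not used here, and leaving out a library could not be run for the same reason. Pooled spread, 2 libraries per genotype and reads shared between copies limit what these data can show.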
